A study of Saccharomyces cerevisiae with 9 samples.

Results

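The 9 yeast genes described here are known from stationary phase, from growth on respired carbon sources and from survival of drying: RGI1, RGI2, SPG1, SPG4, SPG5, SIP18, GRE1, SNZ1 and SNO1. They were chosen by name, with earlier results of these arrays known, and each was read by 1 probe set of the array, so 9 of 9 genes were measured among 5311 yeast genes. Total RNA of the SK1 strain of Saccharomyces cerevisiae was hybridised to Affymetrix arrays. The groups were ime4-/- cells (2 arrays) held for 4 h in an acetate medium that induces sporulation (SPO), wild-type (WT) cells after 4 h in SPO (3 arrays), ime4-/- cells growing in rich glucose medium (YPD; 2 arrays) and WT cells growing in YPD (2 arrays). IME4 encodes the methyltransferase that places N6-methyladenosine on messenger RNA during sporulation of yeast. The replicates are called biological by the submitters. No source used here gave the ploidy, the mating type or the extent of the deletion.

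When glucose runs out, yeast stops dividing, turns to respiration and, in the end, enters stationary phase, a resting state that withstands heat, starvation and drying. Sporulation medium makes related demands, because cells must live on acetate by respiration and cannot grow. RGI1 and RGI2 are paralogs whose proteins serve energy metabolism in respiring cells. SPG1, SPG4 and SPG5 were named for survival of stationary phase at high temperature, and Spg5 binds the proteasome in resting cells. SIP18 and GRE1 are paralogs that encode hydrophilins, small and very hydrophilic proteins that protect other molecules during drying and rewetting. SNZ1 and SNO1 encode the synthase and glutaminase subunits of the enzyme that makes pyridoxal phosphate, the active form of vitamin B6.

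Values are log2 intensities of the deposited table, and a level of about 3 marks the background. The background was set on each array at the 95th percentile of 1412 probe sets for another species and lay between 3.01 and 3.25, while the brightest yeast probe set lay between 13.76 and 14.16. The arrays of the 2 media did not share one distribution, with a 99th percentile of 12.60 to 12.64 on SPO arrays and 12.90 to 12.95 on YPD arrays. Replicate arrays correlated across probe sets with r from 0.998 to 0.999. IME4 itself was above background on all 5 WT arrays and on 0 of 4 ime4 arrays, although it was not known whether its probes lie in the deleted part. The arrays also differed in mating-type markers. The summed intensity of 7 markers of the a pattern was 261 to 267 in ime4 in SPO, against 3109.0 to 3234 in WT in SPO, and 131 to 144 in ime4 in YPD, where HMRA1 and MFA2 were at background, against 3788 to 3923 in WT in YPD. That of 5 markers of the alpha pattern was 1859 to 1892 in ime4 in SPO, against 275 to 293 in WT in SPO, and 6833 to 7098 in ime4 in YPD, against 327 to 348 in WT in YPD. By limma the 7 were each lower and the 5 each higher in ime4 in both media. The effects of genotype and of the mating-type pattern therefore cannot be told apart in any comparison of ime4 with WT below. In these bulk samples, a change in RNA per cell and a change in the share of cells that hold it cannot be told apart either.

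All 9 genes had higher signal in SPO than in YPD, in both genotypes and with no overlap between the arrays, as was the case for 48% of all tested probe sets in ime4 and 48.2% in WT. RGI2 showed the widest contrast, with a level near the top of the array in SPO and a signal under background in YPD, followed by SPG4. The genes were chosen with this response known, so the folds are given as a description without a test. They also depend on the offset where the YPD signal was dim: with 16 intensity units added before the log, the difference between SPO and YPD was 2.94 log2 for SPG1, 2.72 for GRE1 and 2.31 for SNO1 in ime4, against 3.75, 3.62 and 3.27 without it. In WT it was 4.62 for SPG1 and 4.06 for GRE1, against 5.71 and 4.95 without it. In ime4 the differences between SPO and YPD ranged from 1.28 log2 for RGI1 to 6.83 for SPG4, with RGI2 beyond that range, and their median was 3.27, against 0.04 for all tested probe sets. In WT they ranged from 1.23 for SNZ1 to 8.13 for SPG4, again with RGI2 beyond, and the median was 4.68, against 0.05 for all tested probe sets. A difference of at least 2-fold upward was present for 9 of 9 genes in each genotype, while 17.2% of all tested probe sets reached it in ime4 and 22.1% in WT.

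**Figure D1:**
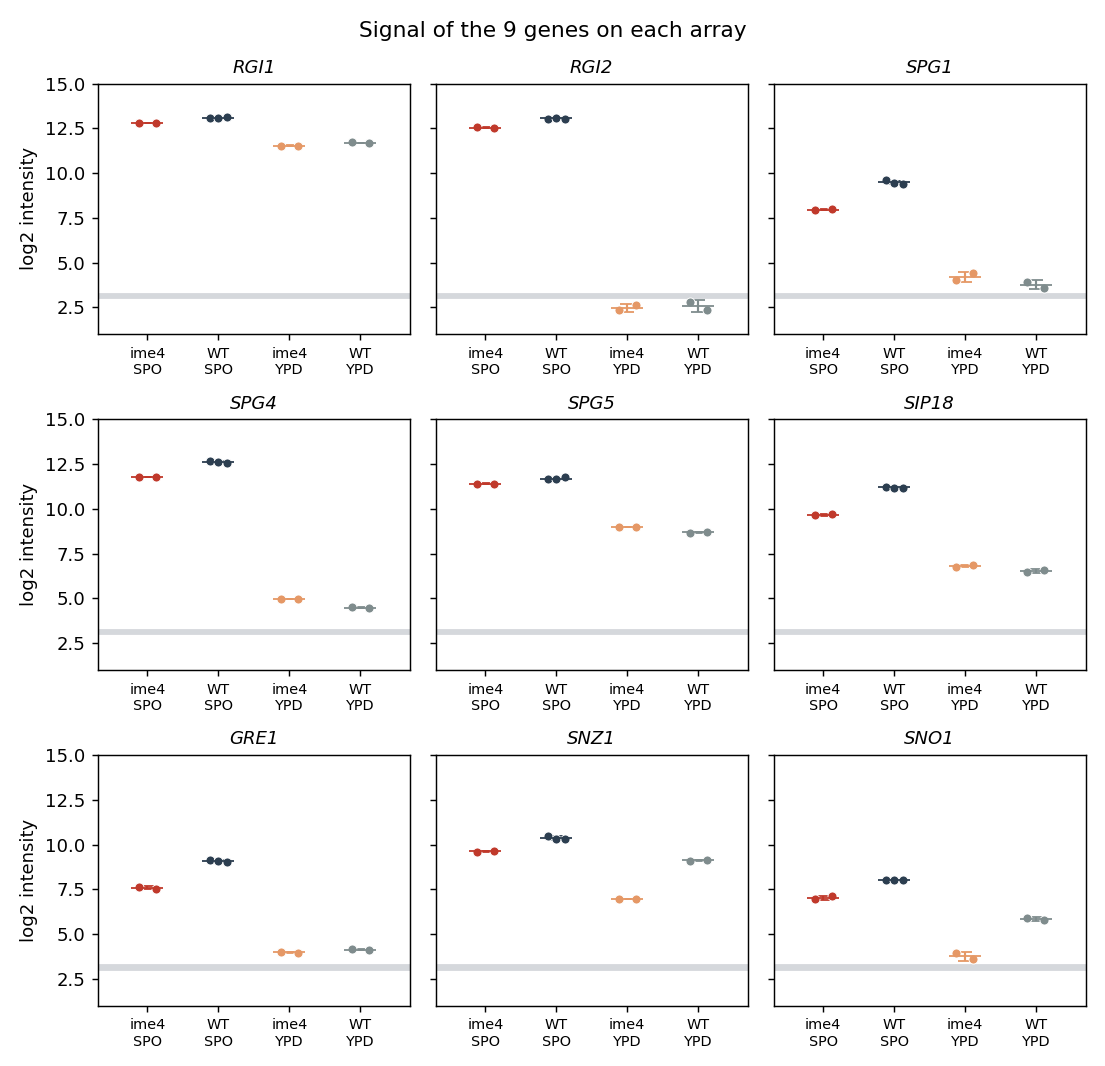
Log2 intensity of each gene on each array, by group (ime4 in SPO, WT in SPO, ime4 in YPD, WT in YPD). Points are arrays, horizontal marks are group means, bars are the SD (n = 2 or 3) and the grey band spans the background levels of the 9 arrays. Every SPO array lies above every YPD array for each gene, and only RGI2 lies under the band in YPD.

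**Figure D2:**
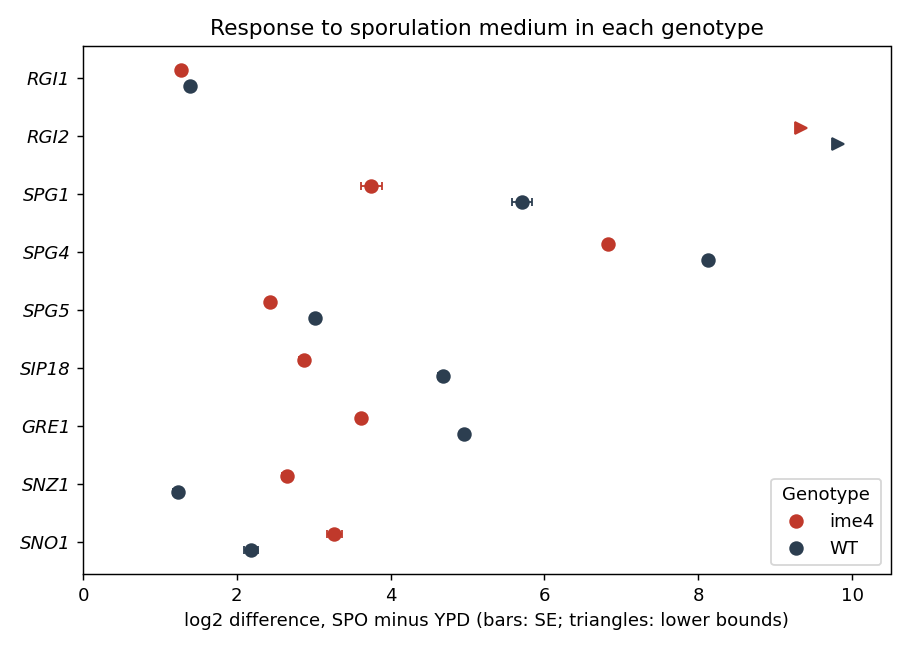
Difference between SPO and YPD for each gene in ime4 (upper points) and WT (lower points), in log2 units. Bars are the SE of the fit, and triangles mark lower bounds for RGI2, which was under background in YPD. The ime4 point lies left of the WT point for 7 genes and right of it for SNZ1 and SNO1. For RGI2 both points are bounds, so their order does not compare the responses. The interaction of RGI1 and of RGI2 did not pass the threshold with values as deposited.

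In SPO, each of the 9 genes was lower in ime4 than in WT, and the size of the difference varied among them. The hydrophilin genes SIP18 and GRE1 and the gene SPG1 were 2.81-fold to 2.88-fold lower. SNO1, SPG4 and SNZ1 were 1.99-fold, 1.79-fold and 1.66-fold lower, and RGI2, SPG5 and RGI1 were 1.44-fold, 1.24-fold and 1.22-fold lower. All 9 passed the threshold of limma (adjusted p under 0.05 over 5359 tested probe sets), in the same direction, where 39.4% of all tested probe sets were called lower and 34.1% higher. Every ime4 array lay below every WT array for 9 of 9 genes, and for 43.9% of all tested probe sets. The median difference was -0.84 log2, against -0.04 for all tested probe sets. A fall of at least 2-fold that passed the threshold was found for 3 of the 9 genes, and for 1.72% of all tested probe sets. The 9 genes were chosen with earlier results of these arrays known, which may include these differences. Their calls and counts here, in YPD and for the interaction are therefore not an independent test.

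In YPD the same genes parted in direction. SNZ1 and SNO1 were 4.41-fold and 4.25-fold lower in ime4, the 14th and the 16th most negative differences of all 5359 probe sets, whereas SPG1, SPG4, SPG5 and SIP18 were 1.21-fold to 1.38-fold higher. In all, 4 of the 9 genes were called higher, against 21.3% of all tested probe sets, and 4 were called lower, against 18.7%. The arrays did not overlap for these 8, with ime4 higher for 38.7% and lower for 32.4% of all tested probe sets. A fall of at least 2-fold that passed the threshold was found for 2 of the 9 genes and for 0.914% of all tested probe sets. Without ime4 replicate 2 in YPD, 2 genes were called higher and 2 lower, and without WT replicate 1 in YPD, 2 were called lower.

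**Figure D3:**
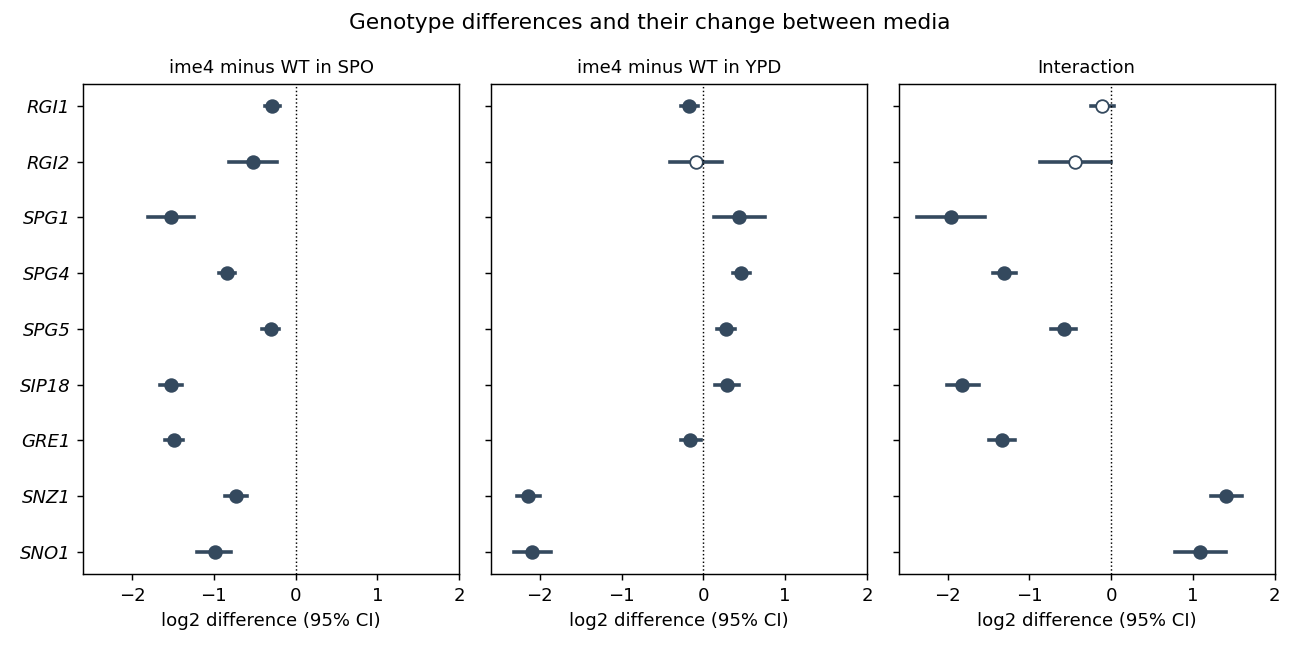
Difference between ime4 and WT in SPO (left), in YPD (middle), and the difference between these differences (right), in log2 units, for each gene. Lines are 95% confidence intervals of the fit, and filled points passed an adjusted p of 0.05. All 9 points lie left of 0 in SPO, and only SNZ1 and SNO1 lie right of 0 in the right panel.

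**Figure D4:**
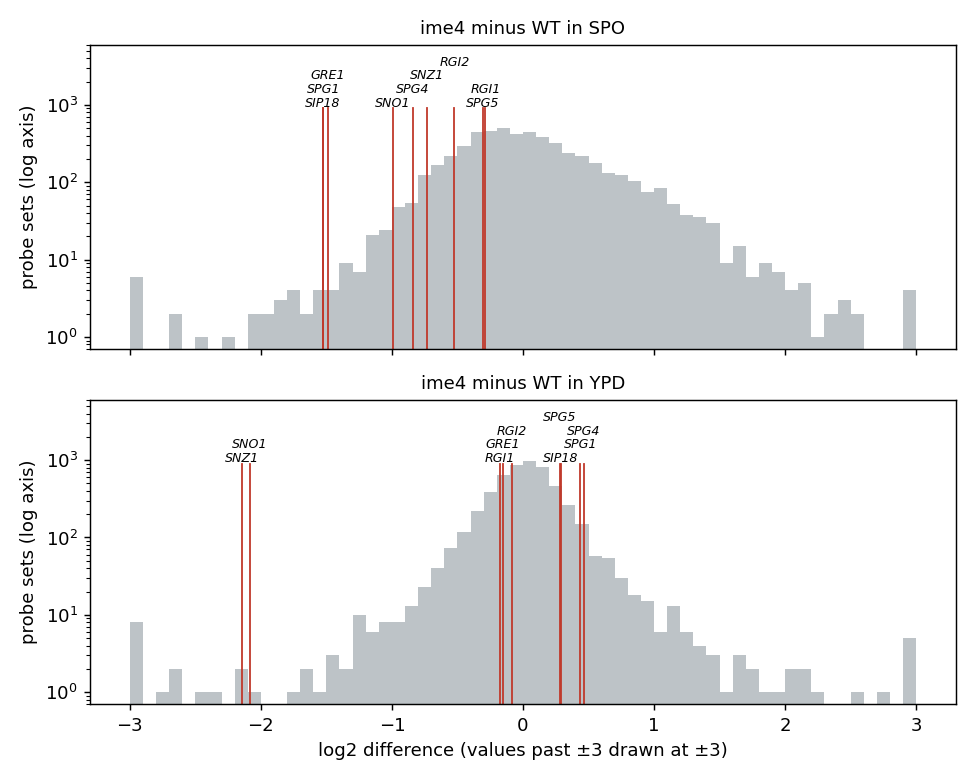
Numbers of all 5359 tested probe sets by their log2 difference between ime4 and WT in SPO (top) and in YPD (bottom), on a log axis, with values beyond 3 in either direction drawn at 3. Red lines mark the 9 genes. SIP18, SPG1 and GRE1 stand in the left tail in SPO, and SNZ1 and SNO1 in the left tail in YPD.

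RGI1 was bright in every group. On the SPO arrays it read 12.80 and 12.79 in ime4, against 13.09, 13.06 and 13.11 in WT. On the YPD arrays it read 11.54 and 11.50 in ime4, against 11.71 and 11.68 in WT. All ime4 arrays were thus below all WT arrays of the same medium, by a small amount each time. The difference was -0.29 log2 in SPO (SE 0.0415, adjusted p = 0.000176) and -0.17 in YPD (SE 0.0454, adjusted p = 0.0142), and the call in YPD was lost without WT replicate 1 (adjusted p = 0.0689) or ime4 replicate 2 in YPD (adjusted p = 0.0746). Its 1.28 log2 higher signal in SPO in ime4, against 1.39 in WT, did not differ past the threshold (interaction -0.11, 95% interval -0.25 to 0.03, adjusted p = 0.137).

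RGI2, the paralog of RGI1, was under background on all 4 YPD arrays. On the SPO arrays it read 12.55 and 12.53 in ime4, against 13.04, 13.09 and 13.05 in WT, with no overlap. Its signal in SPO was at least 650-fold that in YPD in ime4 and at least 906-fold in WT, with the background level taken as the YPD value. These folds depend on the scale: with 16 intensity units added before the log, RGI2 stood at 276-fold in ime4 and 389-fold in WT. In SPO it fell by 0.52 log2 in ime4 (SE 0.13, adjusted p = 0.0051). The YPD values of 2.32 and 2.63 in ime4, against 2.81 and 2.32 in WT, carry no fold. They still enter the interaction, which did not pass as deposited (-0.44, 95% interval -0.87 to 0.00, adjusted p = 0.0745) but passed when values under background were set to it (-0.48, adjusted p = 0.000112). The interaction also passed without WT replicate 1 in YPD (-0.68, adjusted p = 0.00299) or ime4 replicate 1 in YPD (-0.59, adjusted p = 0.0327), and was -0.19 at its smallest when 1 array was left out. The paralogs thus shared a bright signal in SPO but not their signal in rich medium. In WT in SPO both lay above the 99th percentile of the tested probe sets, which was 12.6 log2 on each of these arrays. Whether signal that close to the top of the range compresses the genotype difference was not tested.

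SPG1 encodes a mitochondrial protein. It read 7.93 and 7.99 in ime4 in SPO, against 9.60, 9.46 and 9.39 in WT in SPO. In YPD it was near background, at 4.02 and 4.40 in ime4, against 3.94 and 3.60 in WT. The groups did not overlap in either medium, and their order was opposite in the 2 media. In SPO, SPG1 fell by 1.52 log2 in ime4 (SE 0.126, adjusted p = 3.98e-06). In YPD it was 0.44 higher (SE 0.138, adjusted p = 0.0318), a call that was lost, with a difference of 0.26 or 0.25, without WT replicate 2 or ime4 replicate 2 in YPD (adjusted p = 0.193 and 0.213). With 16 intensity units added before the log, the YPD difference of SPG1 was 0.22 (adjusted p = 0.0466). The YPD call of SPG1 was also lost by limma with only the YPD groups fitted (adjusted p = 0.103) and with the replicate block (adjusted p = 0.0606). The interaction of -1.96 (SE 0.187, adjusted p = 1.87e-05) was the 14th most negative of all tested probe sets.

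SPG4 stood at 11.79 and 11.78 in ime4 in SPO, against 12.66, 12.64 and 12.58 in WT in SPO. In YPD it stood at 4.95 and 4.96 in ime4, against 4.51 and 4.48 in WT. Signal in SPO was thus 114-fold that in YPD in ime4 and 281-fold in WT. In ime4, SPG4 fell by 0.84 log2 in SPO (SE 0.0435, adjusted p = 2.24e-07) and rose by 0.46 in YPD (SE 0.0476, adjusted p = 9.33e-05). The interaction was -1.31 (SE 0.0645, adjusted p = 5.3e-07). With 16 intensity units added before the log, the YPD difference of SPG4 was 0.29 (adjusted p = 0.000415) and its signal in SPO was 75.3-fold that in YPD in ime4 and 165-fold in WT.

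SPG5, the proteasome-binding member, was well above background in both media. It read 11.38 and 11.42 in ime4 in SPO, against 11.67, 11.68 and 11.76 in WT in SPO, and 8.97 on both ime4 arrays in YPD, against 8.67 and 8.71 in WT in YPD. As for SPG1 and SPG4, the ime4 arrays were the lower ones in SPO and the higher ones in YPD. The difference was -0.30 log2 in SPO (SE 0.0462, adjusted p = 0.000244) and 0.28 in YPD (SE 0.0506, adjusted p = 0.00224), with an interaction of -0.58 (adjusted p = 6.79e-05).

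SIP18 read 9.64 and 9.71 in ime4 in SPO, against 11.23, 11.19 and 11.18 in WT in SPO. In YPD it read 6.75 and 6.87 in ime4, against 6.45 and 6.59 in WT. The order of the genotypes again turned between the media. SIP18 fell by 1.53 log2 in ime4 in SPO (SE 0.0584, adjusted p = 4.03e-08), to 34.7% of the WT signal. In YPD it rose by 0.29 (SE 0.064, adjusted p = 0.00645), with an adjusted p of 0.0508 without ime4 replicate 2 in YPD. Signal in SPO was 7.29-fold that in YPD in ime4 and 25.7-fold in WT, and the interaction was -1.82 (SE 0.0867, adjusted p = 4.93e-07).

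GRE1, the paralog of SIP18, read 7.65 and 7.55 in ime4 in SPO, against 9.14, 9.08 and 9.06 in WT in SPO. In YPD it read 4.00 and 3.96 in ime4, against 4.15 and 4.12 in WT. GRE1 fell by 1.49 log2 in ime4 in SPO (SE 0.0503, adjusted p = 2.33e-08), to 35.6% of the WT signal. In that share GRE1 stood close to SIP18 (34.7%) and to SPG1 (34.8%). In YPD the difference of -0.16 was at the threshold (adjusted p = 0.0494) and was lost with 11 of 16 other settings, among them every fit without 1 of the 4 YPD arrays (adjusted p from 0.095 to 0.183). The interaction was -1.34 (SE 0.0746, adjusted p = 9.53e-07). Of all pairs among the 8 genes other than RGI2, which was under background in YPD, SIP18 and GRE1 had the most similar profiles over the arrays, with a root mean square difference of 0.302 log2 after each was centred on its mean. SPG1 and GRE1 followed at 0.326 and SNZ1 and SNO1 at 0.427.

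SNZ1 read 9.62 and 9.66 in ime4 in SPO, against 10.48, 10.31 and 10.31 in WT in SPO. In YPD it read 6.99 on both ime4 arrays, against 9.12 and 9.15 in WT. The ime4 arrays were the lower ones in both media, and by more in YPD. In SPO, SNZ1 fell by 0.73 log2 in ime4 (SE 0.0574, adjusted p = 2.86e-06), and in YPD it fell by 2.14 (SE 0.0629, adjusted p = 2.35e-08). Signal in SPO was 6.26-fold that in YPD in ime4, against 2.35-fold in WT, and the interaction was 1.41 (SE 0.0851, adjusted p = 1.41e-06).

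SNO1 lies next to SNZ1 on chromosome XIII, on the opposite strand, in the R64 gene table. It read 6.96 and 7.11 in ime4 in SPO, against 8.05, 8.03 and 8.01 in WT in SPO, and 3.93 and 3.60 in ime4 in YPD, against 5.92 and 5.78 in WT in YPD. Its order over the groups was that of SNZ1. In SPO, SNO1 fell by 0.99 log2 in ime4 (SE 0.0923, adjusted p = 8.75e-06), and in YPD it fell by 2.09 (SE 0.101, adjusted p = 7.12e-07). The interaction was 1.09 (SE 0.137, adjusted p = 0.000105). Because the ime4 signal in YPD was within 1 log2 unit of background, its size depended on the scale: with 16 intensity units added before the log, the difference in YPD was -1.31 and the interaction 0.40 (adjusted p = 0.00148).

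Over the 9 genes the interaction, which compares the response to SPO between genotypes, was negative and past the threshold for SPG1, SPG4, SPG5, SIP18 and GRE1, and positive for SNZ1 and SNO1. Thus 5 of 9 were called lower, against 34.6% of all tested probe sets, and 2 of 9 higher, against 29.5%. The median was -0.58 log2, against -0.05 for all tested probe sets. Divided by the WT response, the log2 response of ime4 came to 0.612 for SIP18, 0.657 for SPG1, 0.73 for GRE1, 0.806 for SPG5 and 0.839 for SPG4. It came to 2.14 for SNZ1 and 1.50 for SNO1. These ratios describe the same arrays as the interaction and add no test.

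SNZ1 and SNO1 have relatives, SNZ3 and SNO3, which belong to near-identical pairs of genes beside thiamine genes at chromosome ends. Their probe sets are of the kind shared with similar sequences, so the signal may include the other copies. SNZ3 moved against SNZ1 between the genotypes: it read 6.62 and 6.72 in ime4 in SPO, against 6.24, 6.25 and 6.22 in WT, and 7.42 and 7.41 in ime4 in YPD, against 6.70 and 6.68 in WT. The rise of SNZ3 in ime4 was 0.43 log2 in SPO (adjusted p = 1.68e-05) and 0.72 in YPD (adjusted p = 6.72e-06). That of SNO3 was 0.33 (adjusted p = 0.00191) in SPO and 0.57 (adjusted p = 0.000413) in YPD. Of the 6 measured genes of vitamin B6 outside SNZ1 and SNO1, 4 were higher and 1 lower in ime4 in SPO, beside 34.1% higher and 39.4% lower of all tested probe sets. In YPD 2 were higher and 1 lower, or 33.3% and 16.7%, beside 21.3% and 18.7%. The lower one in both media was PDX3, which encodes the oxidase that makes pyridoxal phosphate from the other forms of the vitamin (-0.38 and -0.21 log2). BUD17, which encodes a putative pyridoxal kinase, rose by 1.06 in SPO, and BUD16, of the same kind, by 0.19. TPN1, the pyridoxine transporter gene, did not pass in SPO (0.05, adjusted p = 0.412) or YPD (-0.12, adjusted p = 0.138).

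**Figure D5:**
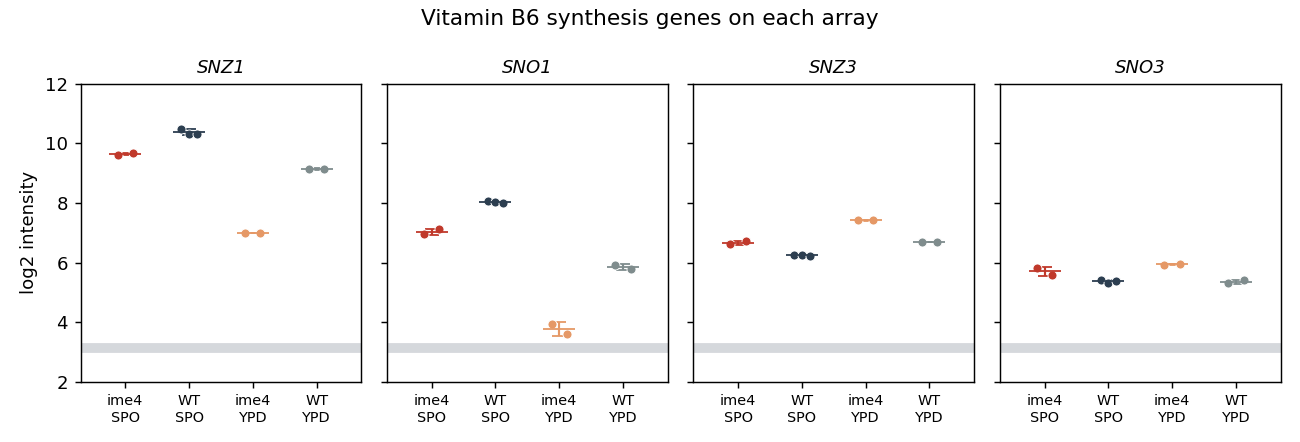
Log2 intensity of SNZ1, SNO1, SNZ3 and SNO3 on each array, by group (ime4 in SPO, WT in SPO, ime4 in YPD, WT in YPD), with group means and SD (n = 2 or 3) and the background levels as a grey band. The ime4 points lie below the WT points of the same medium for SNZ1 and SNO1 and above them for SNZ3 and SNO3.

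Thiamine synthesis has a pyrimidine branch that starts from a vitamin B6 compound. The list used here also held genes of thiamine uptake and other genes outside that branch. Of its 16 measured genes, 8 were lower and 0 higher in ime4 in YPD by limma, beside 18.7% and 21.3% of all tested probe sets. At an unadjusted p under 0.05 by limma, 9 were lower and 1 higher. The median was -0.28 log2, against 0.02 for all tested probe sets. In SPO 5 were higher and 7 lower, or 31.2% and 43.8%, near the 34.1% and 39.4% of all tested probe sets, with a median of -0.01. PET18 fell by 1.52 in YPD and rose by 0.42 in SPO. THI7, the thiamine transporter gene, fell by 1.42 in YPD and fell by 0.58 in SPO, and PHO3, an acid phosphatase gene that acts on thiamine phosphates, differed by -1.22 and -1.34. In general amino acid control, the starvation pathway through Gcn4 that is known to induce SNZ1, 8 of 12 genes were higher and 3 lower in SPO (median 0.41), beside 34.1% and 39.4% of all tested probe sets. In YPD 2 of 12 were higher and 3 of 12 lower (median -0.04), near the 21.3% and 18.7% of all tested probe sets. HIS1, HIS3 and GCN1 rose by 1.07, 1.05 and 1.02 in SPO. Whether this pathway bears on SNZ1 or SNO1 in these cells was not tested.

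Of 4 other measured genes of hydrophilins and small stress proteins, 1 was higher and 2 were lower in ime4 in SPO. These few genes stood beside 34.1% higher and 39.4% lower of all tested probe sets, and showed no common direction. STF2 stood at -0.35 log2 in SPO (adjusted p = 6.52e-05) and HSP12 at -0.13 (adjusted p = 0.0329), while NOP6, a ribosome biogenesis gene, rose by 1.54 and YNL190W did not pass (-0.14, adjusted p = 0.177). HSP12 read 13.66 and 13.67 in ime4 in SPO, against 13.81, 13.78 and 13.79 in WT in SPO, which was the top of the range of each of these WT arrays, so the size of its difference in SPO is not compared with others. In YPD HSP12 fell by 0.84 and STF2 rose by 0.24. Among genes of osmotic stress, 5 of 9 were higher and 2 lower in SPO (median 0.20), beside 34.1% and 39.4% of all tested probe sets. GRE2 and DDR2 rose by 0.87 and 0.29, and GPD1, of glycerol synthesis, fell by 0.27. In the high osmolarity pathway 6 of 10 were higher and 3 lower in SPO, beside the same 34.1% and 39.4%, with SHO1 and SSK1 higher by 1.34 and 0.71 and the kinase gene HOG1 at -0.34.

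Of 23 other measured genes known for induction in stationary phase, 14 were lower and 5 higher in ime4 in SPO (60.9% and 21.7%), beside 39.4% and 34.1% of all tested probe sets, with a median of -0.32 log2. In YPD 5 were lower and 7 higher (21.7% and 30.4%), beside 18.7% and 21.3%, with a median of 0.04. The mitochondrial outer membrane gene OM45 fell by 1.38 in SPO. The gene PAI3, whose product inhibits vacuolar protease A, fell by 1.03, and RTC3 fell by 0.64. In SPO compared with YPD, 20 of 23 were called higher and 0 lower in ime4 by limma (also 20 and 0 at an unadjusted p under 0.05), beside 44% and 42% of all tested probe sets. In WT, 22 were called higher and 1 lower, beside 46.9% and 43.1%. This list was chosen for induction in stationary phase, with earlier results of these arrays known. Its counts between SPO and YPD are therefore given as a description and not as a test. Nutrient signalling genes, among them the kinases of the cyclic AMP and TOR pathways and the stress activators MSN2 and MSN4, were lower in ime4 in SPO for 15 of 18 and higher for 2 (median -0.44), beside 39.4% and 34.1% of all tested probe sets. In YPD 1 was lower and 2 were higher (median -0.02), beside 18.7% and 21.3%. The higher ones in SPO were SOK2 and TPK3, by 1.13 and 1.03, and IGO2, which acts in entry into quiescence, fell by 0.69 in SPO. Of 18 regulators of respiratory carbon use, 13 were lower and 1 higher in SPO (median -0.36), beside 39.4% and 34.1% of all tested probe sets. In YPD 4 were lower and 2 higher (median 0.04), or 22.2% and 11.1%, beside 18.7% and 21.3%. In SPO SIP2, a subunit of the Snf1 kinase, fell by 1.58, CAT8, an activator of gluconeogenic genes, fell by 1.09, and GSM1 fell by 0.94. Regulators of the proteasome, to which SPG5 belongs by function, showed no common direction (3 higher and 3 lower of 11 in SPO, beside 34.1% and 39.4% of all tested probe sets, median -0.03), with RPN4 at -0.55, NAS6 at -0.47 and HSM3 at -0.38, each past the threshold.

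The probe sets nearest to each gene in profile over the 9 arrays were found by the root mean square difference of centred log2 values. CAT8 was nearest to SPG1 (0.235 log2) and PDH1 next (0.282). AGP2 was nearest to both SIP18 (0.172) and GRE1 (0.228), with ACS1 second for SIP18 (0.191) and PHM7 for GRE1 (0.236). CTA1 (0.229) and POX1 (0.252) were nearest to SPG4, VMR1 (0.067) and HMX1 (0.071) to SPG5, and MTG1 (0.05) and TVP15 (0.053) to RGI1. SNZ1 and SNO1 had no such close profile: the nearest stood at 0.367 (PRY1) and 0.436 (YIL082W-A) for SNZ1, and at 0.396 (UIP4) and 0.437 (PRY1) for SNO1. SNO1 itself was closer to SNZ1, by value, than the second of these. For RGI2 the nearest were YLR012C and CRC1, at larger distances than those of SNZ1 and SNO1. No distance is given and no likeness is read from this ranking, because both rest on YPD values of RGI2 under background.

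Of the 9 genes, 5 lie on chromosome XIII in the R64 gene table: SNZ1, SNO1, SPG4, SIP18 and SPG5. The protein-coding genes next to the 9, other than SNZ1 and SNO1 themselves, included 14 that were measured. Among these neighbours 9 were lower and 2 higher in ime4 in SPO, beside 39.4% and 34.1% of all tested probe sets, with differences from -1.03 to 0.46 and a median of -0.35 log2. The most negative was PAI3, beside SIP18, at -1.03. Both neighbours of GRE1, MMT2 and FMP40, were lower, at -0.89 and -0.86. Neither neighbour of SPG5 passed (SGS1 at -0.06 and GYL1 at 0.10). In YPD, where SNZ1 and SNO1 fell by over 2 log2 units, their outer neighbours MTG1 and CTF13 differed by -0.14 (adjusted p = 0.0475) and 0.06 (adjusted p = 0.699). Over all 14 neighbours, 3 were higher and 1 lower in ime4 in YPD, beside 21.3% and 18.7% of all tested probe sets (median 0.04 log2). Many of the neighbours were themselves higher in SPO. In WT 10 of the 14 were at least 2-fold higher in SPO than in YPD, beside 22.1% of all tested probe sets. Their median there was 1.36 log2, against 0.05. Whether position plays a part was not tested. The neighbours were named by position after the values had been seen.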

How the data were processed

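The authors deposited intensity values on a linear scale, made with RMA per the submitters' processing notes, for 9676 probe sets on 9 arrays from 600 ng of total RNA each, per the labels. A difference is relative to the remaining transcripts. Medians of the tested probe sets were 7.80 to 7.86 log2 on SPO arrays and 7.73 to 7.77 on YPD arrays. No source used here gave the software, its settings or whether all arrays were normalized together. Of the probe sets, 5359 matched 5311 genes of assembly R64 through the array's annotation and were tested, 1412 of another species set the background, and 2904 unnamed ones and 1 with several symbols were not used. All 9 genes had 1 probe set each, without the ending for shared probes.

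The log2 was taken with no offset. Group means were fitted to all 9 arrays by lmFit and eBayes of limma 3.58.1 (R 4.3.3). The two-sided p-values were adjusted by Benjamini-Hochberg over all 5359 probe sets and called under 0.05. The median residual SD was 0.0646 log2. With 2 or 3 arrays a group, their number limits the precision. The procedure was tested on simulated data. The genes and lists were chosen with earlier results of these data known. Named from the lists were every measured gene of vitamin B6, hydrophilins and mating type, and the 3 with the smallest p in SPO of each other list, and for each of the 9 genes the 2 nearest profiles. Promoter and protein sequences were not analysed here.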

Additional observations from a re-analysis of the deposited data

Results flagged for a closer look

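The response to SPO differed between the genotypes by the interaction test of limma for 7 of the 9 genes. By the same test 34.6% of all tested probe sets were called lower and 29.5% higher, so such a difference was common on these arrays. The interaction, in log2 units, was -1.96 for SPG1, -1.31 for SPG4, -0.58 for SPG5, -1.82 for SIP18 and -1.34 for GRE1, where the ime4 response was the smaller one, and 1.41 for SNZ1 and 1.09 for SNO1, where it was the larger one. For SNZ1 and SNO1 the positive sign goes with the lower ime4 signal in YPD, at -2.14 and -2.09, and with a lower ime4 signal in SPO as well, at -0.73 and -0.99. Genotype and mating-type pattern cannot be told apart in these differences. No group held enough arrays to look for a single array apart from the rest.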

How the results depend on the processing

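The falls of the 9 genes in ime4 in SPO kept their direction and call in all 150 values from the other settings (quantile normalization, median centring, the dimmest 25% of probe sets left out, an intensity trend, an offset of 16, the replicate block, only the groups compared, each array left out, and a background floor chosen after seeing the data), with 6 genes counted, not 9, where the dimmest 25% were left out, since SPG1, GRE1 and SNO1 were among them. In YPD 18 of 150 values lost their call and 0 called values reversed, while RGI2, not called, ran from -0.33 to 0.16 when 1 array was left out, with 2 values above 0. Genes called higher in YPD numbered 2 to 4 when 1 array was left out and those called lower 2 to 4, and 2 were called lower without the dimmest 25%. Positive interactions numbered 1 without the dimmest 25%, which removed SNO1. For RGI2 6 settings added an interaction call. The differences between SPO and YPD kept their sign in all settings run, with 31 of 150 values in ime4 and 27 of 150 in WT moved by more than the SD between replicates. The offset of 16 moved those of RGI2, SPG1, SPG4 and GRE1 in both genotypes, and of SNO1 in ime4, by over 1.5 times in fold, to 8.11 log2 in ime4 and 8.60 in WT for RGI2, and to 6.24 in ime4 and 7.36 in WT for SPG4. Centring removed a shift of 0.103 log2 between SPO and YPD in WT, and quantile normalization moved the WT response of RGI1 to 1.59.

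Differences between replicates 1 and 2 correlated between groups with r from -0.02 to 0.021, so no shift shared by replicate number was seen. The labels do not say whether arrays were paired, and this check cannot decide it. With the replicate block, 3 genes were called higher and 3 lower in YPD (SPG1 lost at adjusted p = 0.0606 and GRE1 at 0.051), 9 lower in SPO, and 1740 and 2000 probe sets higher and lower in SPO. Signals near background limit SPG1, SPG4, GRE1 and SNO1 in YPD, and RGI2 was under it.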
